A study of Mus musculus with 4 samples.

Results

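Integrins are the receptors by which leukocytes hold on to other cells and to the extracellular matrix. The genes described here are 10 integrin subunit genes of mouse tumor associated macrophages (TAMs), namely Itgal, Itgax, Itga4, Itga5, Itga6, Itgav, Itgb1, Itgb2, Itgb5 and Itgb7. They were chosen by name as leukocyte and matrix-binding subunits, with earlier results of these data known, and each was found by its identifier among the 54146 genes of the count table. The TAMs came from MCA205 tumors, a mouse fibrosarcoma line, grown under the skin of the right flank of female mice aged 8 to 16 weeks after injection of 1000000 cells. The labels name no strain, and the methods of the study list C57BL/6 and nude mice. Control mice, labelled vehicle, were compared with mice that received propranolol, a nonselective beta blocker, at 0.5 g/L in the drinking water from the day of inoculation. Leukocytes were enriched with CD45 microbeads and live CD11b+ F4/80+ cells were then sorted by FACS, so that one integrin subunit, CD11b (the product of Itgam), was itself part of the gate. There were 2 libraries of polyadenylated RNA for each group. The study calls them biological replicates, but how many mice each stood for is not given in the sources used here, and the p-values measure only the spread between these libraries. The libraries held 13798249 and 23018142 counts in the control group and 39818103 and 16424081 counts in the propranolol group. The 10 genes took 0.396% and 0.401% of the counts of the control libraries and 0.373% and 0.379% of those of the propranolol libraries. After the TMM scaling used for every test, their summed level was 3685 and 3681 CPM in the former and 4082 and 4073 CPM in the latter, so the direction of the sum depends on the scaling.

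Each integrin is a pair of one alpha and one beta subunit, and the pair decides what is bound. The beta 2 subunit (Itgb2) pairs with alpha L (Itgal) in LFA-1, with alpha M or CD11b (Itgam) in Mac-1 and with alpha X or CD11c (Itgax) and binds ICAM family proteins and complement fragments. The beta 1 subunit (Itgb1) pairs among others with alpha 4 (Itga4, a VCAM-1 and fibronectin receptor), alpha 5 (Itga5, the main fibronectin receptor) and alpha 6 (Itga6, a laminin receptor). Alpha V (Itgav) pairs with beta 1 or beta 5 (Itgb5) in receptors for vitronectin and other RGD proteins, and beta 7 (Itgb7) pairs with alpha 4 or alpha E to bind MAdCAM-1 or E-cadherin. Talins and kindlins bind the beta tails from inside the cell and switch integrins to the state of high affinity.

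All 10 genes passed the filter on low counts, and 4 of them changed with propranolol by the criterion used throughout, an adjusted p under 0.05 in the edgeR quasi-likelihood test and a change above 1.5-fold. Itgb5 rose, and Itga4, Itgb1 and Itgav fell. Of the 14688 genes tested, 12.2% were called higher and 15.6% were called lower, against 1 and 3 of the 10 integrin genes. A further 3 genes (Itgb2, Itga5 and Itgb7) had an adjusted p under 0.05 with a change below 1.5-fold, all of them higher with propranolol. In all, 7 of 10 integrin genes passed the adjusted p at any fold, where 42.2% of the tested genes did. The propranolol libraries lay entirely above or entirely below the control libraries for 9 of 10 integrin genes, and this was so for 72.6% of all tested genes. The calls changed with a correction for GC content, and with the GC trend of each library removed, 0 of the 10 genes passed both criteria, as described after the single genes.

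The promoters of the 4 called genes are shown because these are the starts of the transcripts that moved. They are the RefSeq windows on GRCm38.p6, from 250 bases before to 50 bases after the annotated start, written 5′ to 3′ on the strand of the gene, which is the plus strand for all 4. They lie at chr8:128685404-128685703 (Itgb1), chr2:79255176-79255475 (Itga4), chr2:83724147-83724446 (Itgav) and chr16:33829415-33829714 (Itgb5). Capitals mark matches, on either strand, to the letters TGACG or GAGGAA.
Itgb1: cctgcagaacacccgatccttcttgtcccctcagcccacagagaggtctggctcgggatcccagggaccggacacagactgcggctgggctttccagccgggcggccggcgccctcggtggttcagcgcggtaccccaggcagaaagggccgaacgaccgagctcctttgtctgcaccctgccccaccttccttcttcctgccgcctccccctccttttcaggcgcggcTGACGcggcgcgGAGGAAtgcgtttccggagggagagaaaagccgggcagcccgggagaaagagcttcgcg
Itga4: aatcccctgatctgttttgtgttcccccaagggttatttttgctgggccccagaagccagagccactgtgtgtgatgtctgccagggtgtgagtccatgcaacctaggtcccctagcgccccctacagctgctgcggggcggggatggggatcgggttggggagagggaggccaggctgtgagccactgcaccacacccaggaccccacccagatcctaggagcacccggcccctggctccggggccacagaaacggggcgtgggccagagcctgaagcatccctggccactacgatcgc
Itgav: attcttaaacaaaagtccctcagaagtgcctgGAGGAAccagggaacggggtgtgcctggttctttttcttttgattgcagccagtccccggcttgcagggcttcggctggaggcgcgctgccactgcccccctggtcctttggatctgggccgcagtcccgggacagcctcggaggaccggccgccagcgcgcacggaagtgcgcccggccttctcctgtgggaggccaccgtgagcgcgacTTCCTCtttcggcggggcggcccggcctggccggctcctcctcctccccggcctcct
Itgb5: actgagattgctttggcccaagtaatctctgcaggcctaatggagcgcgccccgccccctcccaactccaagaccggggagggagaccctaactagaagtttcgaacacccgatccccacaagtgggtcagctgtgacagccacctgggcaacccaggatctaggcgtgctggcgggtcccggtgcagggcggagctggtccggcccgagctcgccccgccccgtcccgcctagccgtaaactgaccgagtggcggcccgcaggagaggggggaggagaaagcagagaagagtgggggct
The letters searched were the full cAMP response element TGACGTCA, its 5-base start TGACG, which the full element contains, and GAGGAA, a PU.1-type ETS sequence. Adrenergic beta receptors raise cAMP, and PU.1 is a master factor of the myeloid lineage, which is why these were looked for. The table held promoters for 7 of the 10 genes, all but Itgal, Itga6 and Itgb2. TGACGTCA occurred in 0 of these 7 promoters and in 1.79% of the 32851 promoters of the table. Of the 7, only the Itgb1 promoter held TGACG, with its first base at position -21 from the start, and 20.8% of all promoters held it. GAGGAA occurred in the promoters of Itgb1, Itgav, Itga5 and Itgb7 and in 28.3% of all promoters. The 4 called genes thus shared none of these letters, since the Itga4 and Itgb5 windows held no match. A match is a description of the sequence, and its absence says nothing of the factor.

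Itgb1 was the most abundant of the genes that fell. Its levels were 654 and 573 CPM (counts scaled to library size with TMM factors) in the control libraries against 387 and 333 CPM in the propranolol libraries. Both propranolol libraries were well below both control libraries, and the gap between the groups was larger than the difference within either. The log2 fold change was -0.77 (SE 0.11) with an adjusted p of 0.000558 in the edgeR test, that is 1.70-fold lower with propranolol. Itgb1 (chr8:128685654-128733200, plus strand, GENCODE M21) encodes the partner shared by most matrix-binding alpha subunits.

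Among these partners, Itga4 had the largest change of the 10 genes without the GC correction. It was measured at 156 and 154 CPM in control TAMs and at 77.8 and 84.5 CPM in TAMs of propranolol treated mice. The libraries of each group were close to each other and the groups were far apart. The log2 fold change was -0.94 (SE 0.10), with an adjusted p of 0.000164 by edgeR. Itga4 (chr2:79255426-79333123, plus strand) encodes the alpha subunit of VLA-4, by which monocytes and lymphocytes adhere to VCAM-1 on the vessel wall. An antisense gene, Cerkl, overlaps 8.04% of its exon bases and had 95 counts over the 4 libraries. The authors name no strand option for counting, and the effect of this overlap on the Itga4 counts was not tested.

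Itgav was measured at 228 and 223 CPM in the control libraries and at 141 and 154 CPM in the propranolol libraries. The groups did not overlap, and the log2 fold change of -0.61 (SE 0.098) was just past the fold criterion of 0.58, with an adjusted p of 0.000959 in the edgeR test. The call was lost without control replicate 1 (log2 fold change -0.54) and without propranolol replicate 1 (-0.55). Itgav (chr2:83724397-83806916, plus strand) encodes the alpha V subunit, which also takes part in the uptake of apoptotic cells. An antisense gene, Gm13684, covers 5.9% of its exon bases and had 132 counts in all.

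Itgb5, the partner of alpha V, moved the other way. It was measured at 655 and 583 CPM in control TAMs and at 919.7 and 1040.1 CPM in TAMs of propranolol treated mice. The lower propranolol library was still far above the higher control library. The log2 fold change was 0.66 (SE 0.10), with an adjusted p of 0.000817 by edgeR, and the fold was 1.58. Itgb5 (chr16:33829665-33949338, plus strand) is known to pair with alpha V alone, and the genes of this one receptor were called in opposite directions. The ratio of Itgav to Itgb5 in TPM (a level per transcript length, scaled within each library) was 0.115 and 0.127 in the control libraries against 0.0507 and 0.0491 in the propranolol libraries. Itgav was the scarcer of the pair in every library. The ratio is not corrected for GC content. With the GC correction described below, the log2 fold change was -0.11 for Itgav and 0.33 for Itgb5, and neither was called.

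**Figure D1:**
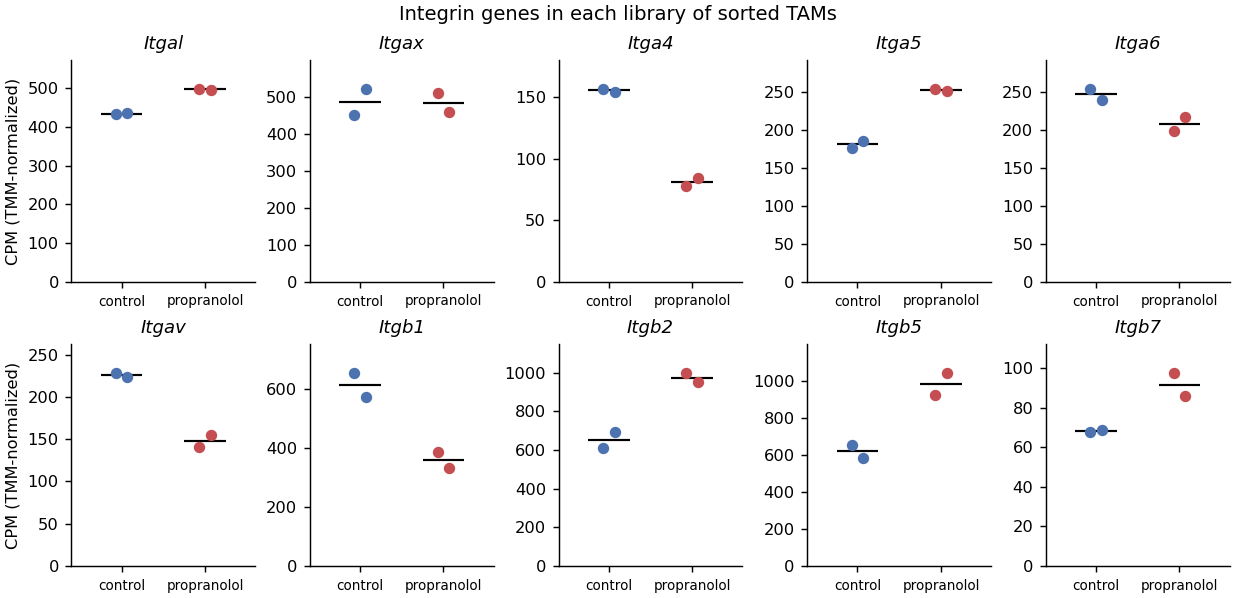
Level of each of the 10 integrin genes in the 2 control and 2 propranolol libraries, in TMM-normalized CPM on axes that start at 0. Points are libraries and lines are group means. Itga4, Itgav, Itgb1 and Itga6 are lower in both propranolol libraries, Itgax overlaps, and the other 5 are higher in both.

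Of the leukocyte integrins of the beta 2 family, the beta subunit itself was the gene closest to the criterion. Itgb2 (chr10:77530252-77565708, plus strand) was measured at 609.9 and 695 CPM in the control libraries and at 998 and 953 CPM in the propranolol libraries. The groups were clearly apart. The log2 fold change of 0.58 (SE 0.097) had an adjusted p of 0.00122 by edgeR but was 1.49-fold, just short of the threshold. Its call therefore turned on small choices, and it was past the criterion without control replicate 2 (0.69) and without propranolol replicate 2 (0.64).

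The alpha partners of beta 2 changed less. Itgal (chr7:127296260-127335138, plus strand), the alpha subunit of LFA-1, was measured at 433 and 436 CPM in control TAMs and at 498 and 496 CPM in TAMs of propranolol treated mice. Its replicates were almost equal, but the log2 fold change was 0.19 (SE 0.089) and its edgeR adjusted p of 0.105 missed the threshold (0.0436 with the replicate number as a block). Itgax (chr7:128129547-128150657, plus strand), which encodes CD11c, the alpha X subunit, was measured at 450.4 and 521 CPM in the control libraries and at 509 and 458 CPM in the propranolol libraries. It was the one gene of the 10 whose groups overlapped, with a log2 fold change of -0.0054 (SE 0.11) and an adjusted p of 0.971 in edgeR. The third partner, Itgam, is not one of the 10 genes and was used for sorting. It was measured at 359 and 352 CPM in the control libraries and at 369 and 313 CPM in the propranolol libraries, with a log2 fold change of -0.059 and an edgeR adjusted p of 0.683. Neither Itgb2 nor any of these alpha genes was past the criterion.

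The remaining genes of the 10 were Itga5, Itga6 and Itgb7. Itga5 (chr15:103344286-103366763, minus strand) was measured at 176 and 187 CPM in control TAMs and at 255 and 252 CPM in TAMs of propranolol treated mice. Its log2 fold change was 0.48 (SE 0.094) with an adjusted p of 0.00278 by edgeR, higher in both propranolol libraries but below the fold criterion. Itga6 (chr2:71745616-71858416, plus strand) was measured at 254 and 240.3 CPM in the control libraries and at 199 and 217 CPM in the propranolol libraries. It was lower in both propranolol libraries, but the log2 fold change of -0.25 (SE 0.098) had an edgeR adjusted p of 0.0635 (0.0247 with that block). Itgb7 (chr15:102215995-102231944, minus strand) was measured at 67.6 and 68.9 CPM in control TAMs and at 97.4 and 85.6 CPM in TAMs of propranolol treated mice. It had between 1003 and 3541 counts a library, and its log2 fold change of 0.42 (SE 0.11) had an adjusted p of 0.0109 by edgeR. The fibronectin receptor alpha 5 and the VLA-4 subunit alpha 4, which share beta 1, thus lay on opposite sides of 0, and only the alpha 4 change was called.

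Levels of different genes were compared per length, in TPM. In control TAMs Itgb2 had the highest level, at 711 ± 80.0 TPM (SD, n = 2), followed by Itgb5 at 578 ± 35.8 TPM and Itgb1 at 499 ± 36.7 TPM. These beta subunit genes were at percentiles 99.1, 98.8 and 97.6 of all tested genes in mean TPM over the 4 libraries. The alpha subunits came next, with Itgax at 336 TPM, Itgal at 219.7 TPM and Itga5 at 122 TPM. Itga6 (90.9 TPM), Itgb7 (81.8 TPM), Itgav (69.7 TPM) and Itga4 (36.9 TPM) were lowest. In TAMs of propranolol treated mice the order was the same apart from 2 exchanges between neighbours. Itgb1 was at 248 ± 19.2 TPM, below Itgax at 283 ± 13 TPM, and Itga6 was at 65.0 ± 5.66 TPM, below Itgb7 at 92.9 ± 5.87 TPM. No neighbours in either order had overlapping libraries, although with 2 libraries a group the order was not tested. Several places depended on the length used. With the longest transcript in place of all exons, Itga6 was at 148 TPM in control TAMs, above Itga5 at 106 TPM, and Itgav (82.5 TPM) was above Itgb7 (65.6 TPM). In TAMs of propranolol treated mice Itga6 (105 TPM) then remained above Itgb7 (73.9 TPM), so that this exchange was lost, and Itgb1 (204 TPM) was just below Itgal (206 TPM). The TPM of a single gene was not used for the difference between groups, only ratios and shares within a library, because the median tested gene was lower with propranolol by 0.25 on the log2 scale in TPM, against a log2 fold change of -0.019 in the edgeR fit.

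Within a library, the balance among the 4 beta subunit genes differed between the groups. Itgb1 made up 28.2% and 25.2% of their summed TPM in the control libraries against 13.2% and 11.4% in the propranolol libraries. Itgb2 made up 35.1% and 40.9% in the control libraries against 45.7% and 43.5% in the propranolol libraries, and Itgb5 made up 32.4% and 29.4% in the former and 36.2% and 40.8% in the latter. The share of Itgb1 was thus lower, and the shares of Itgb2 and Itgb5 higher, in both propranolol libraries than in either control library. Itgb7 took 4.29% and 4.46% in the control libraries against 4.91% and 4.31% in the propranolol libraries, where the groups overlapped. The ratio of Itgb2 to Itgb1 was 1.25 and 1.62 in control TAMs and 3.45 and 3.83 in TAMs of propranolol treated mice. The log2 fold change of Itgb2 exceeded that of Itgb1 by 1.35, and by 0.75 with the GC correction. These shares are a description and were not tested. The smallest p of an exact permutation test of 2 against 2 libraries is 0.333.

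Among the alpha genes that can pair with beta 2 the balance differed less. Itgax took 40.6% and 44.2% of their summed TPM in the control libraries against 41.5% and 40.9% in the propranolol libraries. Itgal took 28.5% and 27.1% in the control libraries against 29.7% and 32.3% in the propranolol libraries. The shares of Itgax overlapped between the groups, and those of Itgal were slightly higher with propranolol. Among the alpha genes that can pair with beta 1, Itga5 made up 28.3% and 29.8% in control TAMs and 43.0% and 39.2% in TAMs of propranolol treated mice. Itga4 made up 8.86% and 8.70% in the control libraries against 4.64% in each propranolol library. Itgav made up 16.8% and 16.4% in the control libraries against 10.9% and 11% in the propranolol libraries. With the length of all exons the alpha 5 transcript was the most abundant beta 1 partner in every library. With the longest transcript Itga6 was above it in both control libraries, at 32.5% and 31.0% against 22% and 23.5% for Itga5. The share of Itga5 was larger in both propranolol libraries with either length. The shares are not corrected for GC content, and with the GC correction the log2 fold change of Itga5 exceeded that of Itga4 by 0.34 in place of 1.42 and that of Itgav by 0.25 in place of 1.09.

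**Figure D2:**
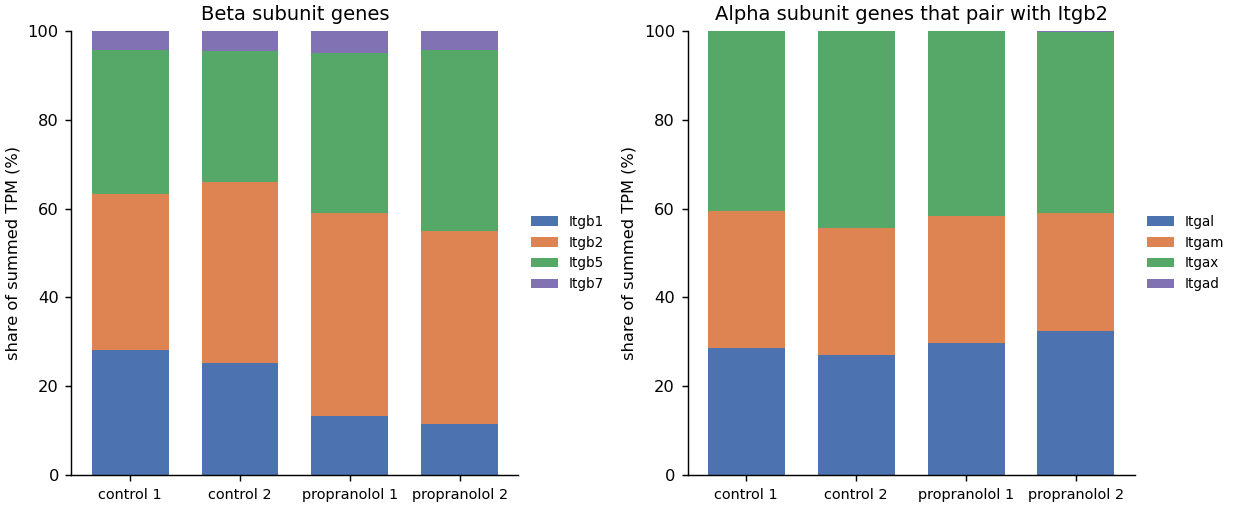
Shares of summed TPM in each library, from 0 to 100%, among the 4 beta subunit genes (left) and among the alpha subunit genes that pair with Itgb2 (right). The Itgb1 share is 28.2% and 25.2% in the control libraries against 13.2% and 11.4% in the propranolol libraries, while the Itgax share overlaps between the groups.

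The changes of the 10 genes followed their GC content. Itga4, Itgav and Itgb1, the genes that fell, had the lowest GC content of the 10, with 41.1%, 43.5% and 44.8% in their longest transcripts. Itgb7, Itga5 and Itgb5, with 58.0%, 57.3% and 57.0%, had the highest GC content and were all higher with propranolol. Over the 10 genes the Spearman correlation between GC content and log2 fold change was 0.84, and over 14681 tested genes it was 0.58. All of these genes were measured in the same 4 libraries, so the correlations are given as a description. When the GC trend of each library was removed by offsets in the edgeR fit, the correlation over all tested genes was 0.053 and that over the 10 integrin genes was 0.73.

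With this GC correction, Itgb1, Itgb2 and Itgb5 were the integrin genes that kept an adjusted p under 0.05, and none reached 1.5-fold. Itgb1 had a log2 fold change of -0.38 (SE 0.10) and an edgeR adjusted p of 0.0264, Itgb2 one of 0.37 (SE 0.097) and 0.0225, and Itgb5 one of 0.33 (SE 0.10) and 0.0435. These 3 of 10 genes compare with 24.1% of all tested genes that passed the adjusted p at any fold in the corrected fit, where 7.64% were called higher and 4.98% lower. Itgb1, Itgb2 and Itgb5 thus kept their directions at smaller sizes. The other genes of the 10 kept their directions as well, apart from Itgal. Itga4 was reduced from -0.94 to -0.19 (SE 0.11), with an adjusted p of 0.221 by edgeR, and Itgav from -0.61 to -0.11 (SE 0.10), with an adjusted p of 0.487. Itga5 was at 0.14, Itga6 at -0.16, Itgax at -0.12, Itgb7 at 0.088 and Itgal at -0.022, none of which passed the adjusted p. The correction itself moved the median log2 fold change of all tested genes by 0.11, from -0.019 to 0.087. The source of the GC trend was not tested.

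**Figure D3:**
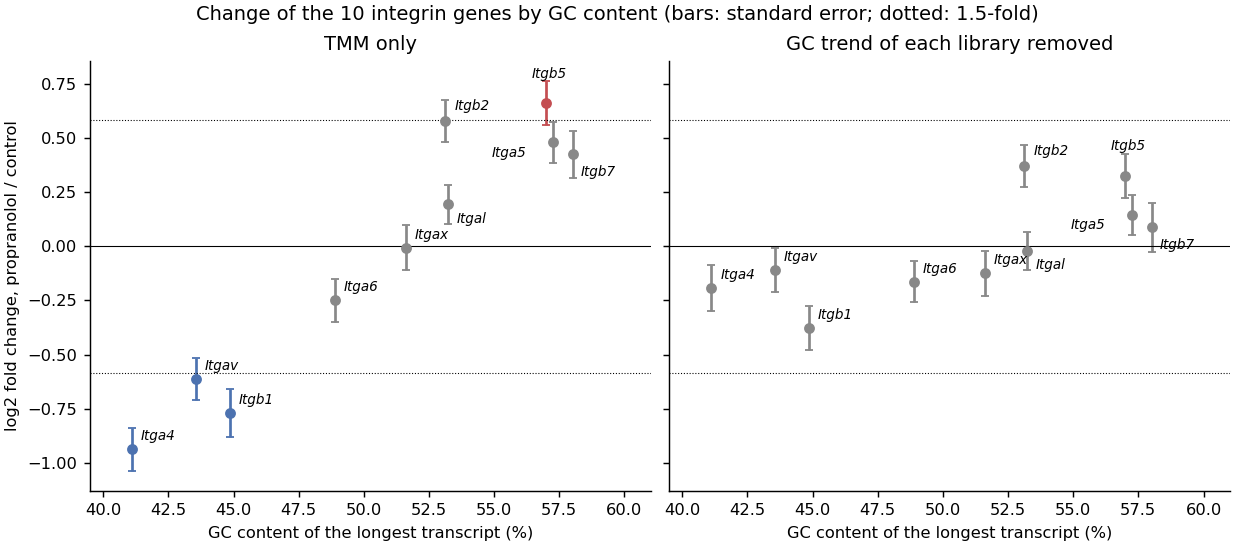
Log2 fold change (propranolol over control) of the 10 integrin genes against the GC content of the longest transcript in percent, with TMM alone (left) and with the GC trend of each library removed (right). Points are genes, bars are standard errors, dotted lines mark 1.5-fold, and color marks called genes. With TMM alone 4 genes are past both criteria and with the correction none is.

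Most of the other integrin subunit genes were low in these TAMs. Of 16 further subunit genes 15 were tested, and the median log2 fold change was -0.28 against -0.019 for all tested genes. None rose and 1 fell, against 12.2% and 15.6% of all tested genes. The gene that fell was Itga1, which encodes the alpha subunit of the collagen receptor VLA-1. It was measured at 25.8 and 19.1 CPM in the control libraries and at 7.32 and 5.96 CPM in the propranolol libraries, with a log2 fold change of -1.73 and an adjusted p of 0.000241 in the edgeR test. It remained past the criterion with the GC correction, at -1.17 (adjusted p of 0.00308 in edgeR). Among the others, Itga9 was at 0.14, Itgb3 at -0.28, Itga8 at -0.63 and Itgae at -0.65. The log2 fold changes of Itga2 (-1.45) and Itgb8 (-1.43) were large but rested on less than 3 CPM in every library, with edgeR adjusted p values of 0.0579 and 0.0583. Itga11 (-0.85), Itga2b (-0.52), Itga7 (-0.17), Itga3 (-0.069), Itga10 (0.22), Itgb4 (0.35) and Itgad (0.74) were as low and were not called. Itgb6 had no counts in any library. Without control replicate 2, and without propranolol replicate 1, 3 genes of this list were called lower, as with a filter at 1 CPM, and 4 were with the replicate number as a block.

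Genes of integrin activation and of the adaptors at the beta tail moved in both directions. Of 35 genes 33 were tested, of which 7 were called higher and 4 lower, against 12.2% and 15.6% of all tested genes, and the median log2 fold change was 0.20. Ilk, the integrin-linked kinase that binds beta tails, rose from 19.3 and 16.4 CPM to 41.0 and 35.4 CPM, a log2 fold change of 1.11. Fermt2 (kindlin-2) and Parva (alpha-parvin), which are typical of adherent non-blood cells, fell by 1.73 and by 1.44 on the log2 scale. Both rested on low levels, with Fermt2 at 12.4 and 4.86 CPM in the control libraries and at 2.42 and 2.75 CPM in the propranolol libraries. Chosen after its values were seen, the blood cell kindlin Fermt3 rose from 432 and 461 CPM to 830 and 856 CPM (log2 fold change 0.92). Tln1 (talin-1) rose by 0.65, and the GTPases Rap1a and Rap1b fell by 1.05 and by 0.60 on the log2 scale. With the GC correction the list had 5 genes called higher and 2 lower, against 7.64% and 4.98% of all tested genes, and Ilk, Fermt2 and Parva kept their calls. Fermt3 (0.58), Tln1 (0.32), Rap1a (-0.044) and Rap1b (0.28) did not pass the criterion in that fit. Without control replicate 1, 2 genes of the list were called lower.

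Integrin ligands on cell surfaces were read in the same fit. Of 13 cell-surface ligand genes 10 were tested, and 1 was called higher and 3 lower, against 12.2% and 15.6% of all tested genes, and the median log2 fold change was -0.020. Icam1, a ligand of LFA-1 and Mac-1 and the most abundant of the list, rose from 159 and 167 CPM to 257 and 248 CPM (log2 fold change 0.63, adjusted p of 0.000722 in edgeR). Vcam1, the ligand of alpha 4 integrins, fell from 249 and 209.5 CPM to 129 and 128 CPM, a log2 fold change of -0.84. Thy1, a T cell and fibroblast surface protein, and Jam3 fell by 1.21 and by 3.06, the latter with at most 37 counts in a library. With the GC correction Icam1 was at 0.33 and Vcam1 at 0.020, neither past the criterion, and the list had 0 genes called higher and 2 lower. Icam4 had no counts in any library. The number called higher was 2 without either control replicate and 3 without propranolol replicate 2.

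Of 22 matrix ligand genes 15 were tested, of which 3 were called higher and 7 lower, against the same shares of all tested genes, and the median log2 fold change was -0.33. Fn1 (fibronectin, the ligand of alpha 5 beta 1) was the most abundant and rose from 2284 and 2062 CPM to 4265 and 3699.8 CPM, a log2 fold change of 0.87 (adjusted p of 0.000196 by edgeR). Spp1 (osteopontin) and Thbs1 (thrombospondin-1), named here after their values were seen, rose by 1.57 and by 1.67. Lama2, Postn and Lama4, which encode laminin chains and periostin, fell by 4.02, by 2.54 and by 2.28. Postn was at 473 and 145 CPM in the control libraries and at 55.4 and 50.1 CPM in the propranolol libraries, so that control replicate 1 stood far above the others. Lama2 (13.1 and 4.15 CPM in the control libraries) and Lama4 (31.8 and 10.1 CPM) were also highest in control replicate 1. The sum of the fibroblast and sarcoma markers, given below, was likewise highest in that library and lower with propranolol. Without that library 4 genes of the list were called lower, with DESeq2 3 were, and with the GC correction 3 were called higher and 6 lower. Of those named, Postn (-1.21) lost its call there, and Fn1, Spp1, Thbs1, Lama2 and Lama4 kept theirs. The fibrinogen genes Fga, Fgb and Fgg had no counts in any library.

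**Figure D4:**
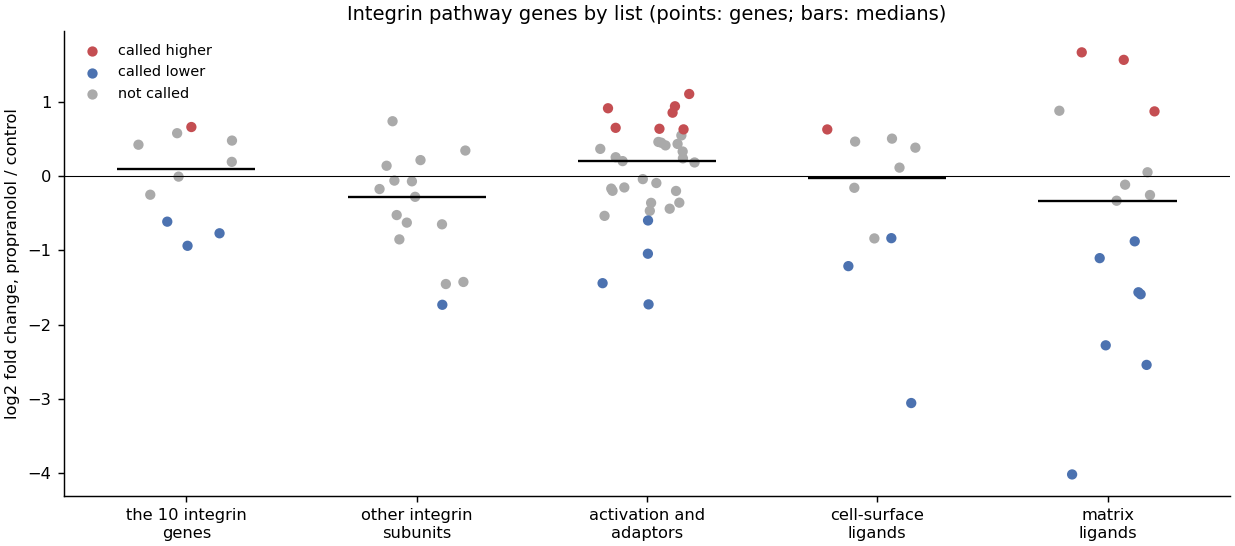
Log2 fold change (propranolol over control) of every tested gene in 5 lists, the 10 integrin genes and 4 lists of other integrin subunits, activation and adaptor genes, cell-surface ligands and matrix ligands. Points are genes, colored by call, and bars are medians, which lie at 0.094, -0.28, 0.20, -0.020 and -0.33 from left to right.

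Integrins are expressed by many cells, so the marker genes of the labelled and of other cell types were read in the same libraries. The 12 macrophage markers were detected in every library, with summed levels of 23383 and 22389 CPM in the control group and 29398 and 26653 CPM in the propranolol group, led by Lyz2. The label thus held in each library, and 2 of the 12 markers were called higher, against 12.2% of all tested genes. These were the growth factor receptor Csf1r and the endotoxin receptor Cd14 (both named after their values were seen). Without propranolol replicate 2 the count of macrophage markers called higher was 4. With the GC correction it was 1, against 7.64% of all tested genes. That gene was the mannose receptor Mrc1 (0.85), while Csf1r (0.32) and Cd14 (0.50) were not called. Of 12 T cell markers, led by Cd8a, 10 were called lower and 0 higher, against 15.6% and 12.2% of all tested genes. Their sums were 282 and 324 CPM in the control libraries against 149 and 87.2 CPM in the propranolol libraries. Cd4, also on this list, was higher in both propranolol libraries and not called. It was at 13.2 and 13.4 CPM in the control libraries and at 16.3 and 17.0 CPM in the propranolol libraries. All 8 NK cell markers, led by Gzmb, were called lower, against the same 15.6%. Their sums were 248 and 252 CPM in the control libraries and 110.2 and 56.4 CPM in the propranolol libraries. Lymphocytes use Itgal, Itga4, Itgb1 and Itgb7, of which Itga4 and Itgb1 were called lower together with these markers. Itgal (log2 fold change 0.19) and Itgb7 (0.42) were higher in both propranolol libraries and not called. In bulk RNA, fewer cells of a type cannot be told apart from less RNA per cell.

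Of 10 fibroblast and sarcoma markers, 7 were called lower and 0 higher, against 15.6% and 12.2% of all tested genes. Col1a1 was highest in TPM and Col3a1 in CPM. The sums were 3104 and 1176 CPM in the control libraries against 719 and 777 CPM in the propranolol libraries. Fibroblasts and sarcoma cells use Itgb1, Itgav and Itgb5, and control replicate 1 held the most of these markers. With DESeq2 4 of the markers were called lower. Without control replicate 1 the count was 3, and in that fit Itgb1 was past the criterion at -0.61 on the log2 scale, Itgav was not at -0.54, and Itgb5 was at 0.81. Neutrophil markers had 7 of 10 genes tested and 4 called higher, against 12.2% of all tested genes. S100a9 was highest in TPM and Csf3r in CPM. The sums were 150.4 and 182 CPM in the control libraries against 311 and 327 CPM in the propranolol libraries. Csf3r, with 97.0 and 129.6 CPM in the former and 154 and 179.7 CPM in the latter, was not called. Neutrophils carry much Itgb2, which was higher in both propranolol libraries, and their part in its level was not tested. Platelet markers, with Gp1bb at 0 in every library, had 2 of 5 tested genes called higher, against 12.2% of all tested genes. Their sums were 161 and 146 CPM in the control libraries against 293 and 266 CPM in the propranolol libraries. Most of each sum was Pf4, at 155 and 141 CPM in the former and 284 and 251 CPM in the latter. Itga2b, also on this list, was lower in both propranolol libraries and not called. Against 12.2% higher and 15.6% lower of all tested genes, the B cell list (Cd79b the most abundant) had 1 gene called higher and 1 lower of 3 tested. The dendritic cell list (Batf3) had 0 higher and 3 lower of 8, and the endothelial list (Pecam1) had 1 higher and 0 lower of 6. These 3 short counts were not stable, with 0 B cell genes called lower without any one of the 4 libraries, 0 to 2 endothelial genes called higher, and 1 dendritic cell gene called lower with the GC correction. Dendritic cell sums were 50.2 and 55.8 CPM in the control libraries against 44.5 and 36.6 CPM in the propranolol libraries. With the GC correction 10 T cell, 6 NK cell and 6 fibroblast and sarcoma markers were called lower and 5 neutrophil markers higher. Of all tested genes, 4.98% were called lower and 7.64% higher in that fit. The sort for CD45, CD11b and F4/80 is meant to remove lymphocytes, neutrophils, fibroblasts and tumor cells. The part of these other cells in the levels of the integrin genes was not tested.

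**Figure D5:**
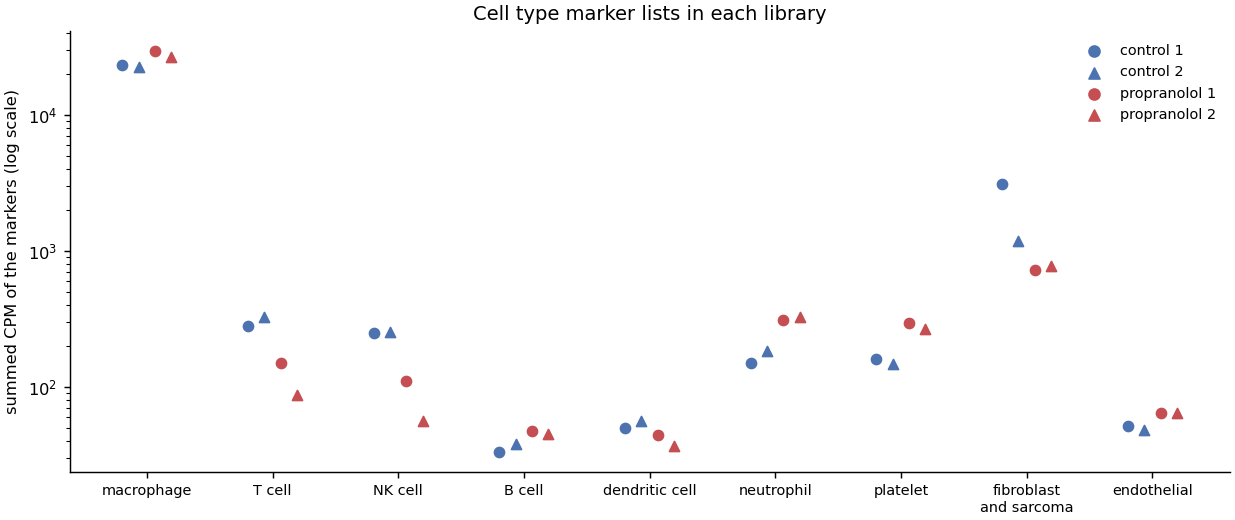
Summed CPM of the marker genes of 9 cell types in each of the 4 libraries, on a log axis. Colors are groups and shapes are replicate numbers. T cell, NK cell, and fibroblast and sarcoma sums are lower, and neutrophil and platelet sums higher, in both propranolol libraries. Most of the platelet sum is Pf4. Control replicate 1 is highest for fibroblast and sarcoma markers at 3104 CPM.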

How the data were processed

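RNA of sorted TAMs was sequenced in 2 control and 2 propranolol libraries. The authors deposited whole-number counts of fragments per gene without normalization. The submitters' processing notes list STAR 2.7.1a, SAMtools 1.9, featureCounts 1.6.4 and DESeq2 1.39.0 with mm10; the GENCODE release and the strand setting are not given in the sources used here. Genes were named by identifier with GENCODE M21, which gave exon length and GC content. Counts were tested with edgeR 4.0.16 in R 4.3.3 (quasi-likelihood, TMM, filterByExpr at a minimum count of 10, Benjamini-Hochberg over 14688 genes). TPM used the length of all exons. The GC correction used offsets from a spline over GC content (5 degrees of freedom). The spline was fitted in every library to the log2 CPM of each gene minus its mean over the 4 libraries. Such offsets also remove any difference between the groups that tracks GC content. DESeq2 1.42.0, other factors, filters and thresholds, the replicate number as a block and leaving out each library were alternatives. The scripts were tested on simulated data. The 10 genes and all lists were chosen with earlier results of these data known. Named genes were the 10 genes, the other tested subunits, and in each pathway list the most abundant gene and the 3 called genes of largest change; others are marked as chosen later. One gene that this rule names is not reported here. Protein sequences were not used here. Replicates differed by more than counting error (chi-square per degree of freedom 11.8 and 15.1).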

Additional observations from a re-analysis of the deposited data

How the results depend on the processing

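Of 120 log2 fold changes of the 10 genes under 12 alternatives, 99 kept their direction and their side of the criterion, 11 lost the call, 4 gained it and 6 changed sign. The number of genes called higher was 1 and lower 3. With DESeq2 there were 2 and 3, without a filter on low counts 2 and 2, with GC correction 0 and 0, with glmTreat against 1.5-fold 0 and 1, without a fold threshold 4 and 3, and with an absolute log2 fold change above 1.5 0 and 0. Leaving out 1 library gave 1 to 2 higher and 2 to 3 lower. Leaving out control replicate 1, or propranolol replicate 1, ended the call of Itgav, and leaving out control replicate 2, or propranolol replicate 2, made one of Itgb2 (0.69 and 0.64). Without a filter Itgav was at -0.54 and Itgb2 at 0.65, and with DESeq2 Itgb2 was at 0.60. The changes of sign were small values that were never called. Itgal was at -0.022 with GC correction, with or without the replicate block, and Itgax was at 0.018 with DESeq2, 0.067 without a filter, and between -0.080 and 0.12 with 1 library left out. The cause of these differences was not tested.

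With the replicate block there were 1 higher and 3 lower, and with GC correction and the replicate block 0 and 0, so the block moved no count of calls among the 10 genes. With the replicate block Itgal and Itga6 also passed the adjusted p, at 0.0436 and 0.0247 in edgeR, with changes below 1.5-fold. Other edgeR settings did the same. Itgal passed without a filter on low counts (adjusted p of 0.0394). Itga6 passed with upper-quartile factors (0.0317) and with the filter at 1 CPM (0.0460). The samples share only a number: the deviations of same-numbered libraries correlated at 0.17 over 14688 genes. Over all tested genes, 1798 were called higher and 2286 lower, 1867 and 2495 with the replicate block, 1122 and 732 with GC correction, 413 and 680 with glmTreat, 61 and 667 above a log2 fold change of 1.5, 3205 and 2999 without a fold threshold, and 1417 and 2533 with upper-quartile factors. With 2 libraries a group, sizes near the threshold are imprecise. Each of the 10 genes had at least 1003 counts in every library, and depth limits mainly the other subunit genes under 3 CPM. With glmTreat the activation and adaptor list had 3 genes called higher and 2 lower, and 4 matrix ligands, 5 T cell markers and 3 fibroblast and sarcoma markers were called lower.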
